A study of Eucalyptus globulus and Eucalyptus grandis with 36 samples.

Results

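Cytochrome P450 genes were followed in stems of Eucalyptus globulus and Eucalyptus grandis seedlings kept under combinations of temperature and CO2. The genes were chosen by their deposited description: every gene described as a cytochrome P450, apart from CYP98 and genes described as reductase, cinnamate, ferulic acid, allene oxide or gibberellin enzymes. The rule found 240 of the 11827 gene identifiers in the 8 deposited tables, of which 9802 carry a description. The genes hold 70 distinct descriptions. Of the genes, 218 are assigned to 1 of 30 numbered P450 families and 22 are described only as a member of the P450 superfamily. The heme-binding annotation term, which the choice did not use, was attached to 238 of the 240 genes and to 325 genes in all.

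Cytochrome P450s are heme enzymes that take electrons from a reductase partner and insert an oxygen atom into a small molecule. In plants they form one of the largest enzyme families. Some make or inactivate hormones, others build lipids, cutin, suberin, sterols and carotenoids, and the large lineages of the CYP71 clan act mostly in specialised metabolism, including terpenoids and phenolics, compound classes for which eucalypts are known. Families are numbered by sequence similarity, so that CYP94 and CYP707 are separate families and CYP94B is a subfamily of the first.

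The seedlings came from clonal seeds and were 6 months old and some 25 cm tall when moved into the chambers, where treatment lasted 35 days under a 10 h day at 280 µmol photons. In E. globulus the groups were 10 °C, 30 °C, 20 °C with elevated CO2, 10 °C with elevated CO2, 30 °C with elevated CO2, and the 20 °C control in ambient CO2. E. grandis had 10 °C, 30 °C, 10 °C with elevated CO2, 30 °C with elevated CO2 and its own 20 °C control in ambient CO2. Set points named 10, 20 and 30 °C stand for chamber ranges of 10 to 12 (low), 22 to 24 (control) and 33 to 35 °C (high). Elevated means 700 ppm; for ambient air the treatment notes say 390 ppm and the design text 400 ppm. By the labels each of the 12 groups has 3 of the 36 samples, and nothing says whether these were separate plants. Chamber and treatment cannot be told apart.

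The deposited values are 1 normalised value per gene and group on a log2 scale with a floor of 0, and neither a value per sample nor a spread between samples can be given, so the depth is unknown. The tables list only genes that the authors selected by a test at a corrected p of 0.05 with at least a 2-fold difference, so stem identity could not be checked against markers that may be unlisted. A gene is called changed below where its table lists it and its group values lie 1 log2 unit or more apart (2-fold). In the tables of 3 temperatures the authors' test covered all 3 together, so a single pair there has no test of its own. Values are compared between groups for 1 gene, not between genes. Identifiers are E. grandis gene models, and roles are those of the Arabidopsis thaliana genes that the descriptions name; whether the eucalypt genes share them was not tested. Many P450 genes share a description with close neighbours, and reads may be split between such copies, which makes a value of a single gene uncertain. In whole stems, fewer cells of a type and less RNA per cell cannot be told apart.

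P450 genes were spread over the tables: 108 stood in 1 table, 70 in 2, 42 in 3, 16 in 4, 2 in 5 and 2 in 6. Tables of E. globulus listed 205 of them and tables of E. grandis listed 44, with 27 in both kinds. In E. globulus, 87 of the 240 genes (36.3%) were changed at 10 °C against 20 °C, 47 higher and 40 lower, and the share among all 11827 genes was 31.5%. In the warmth, at 30 °C against 20 °C, 83 (34.6%) were changed, 59 higher and 24 lower, against 37.4% of all genes. Between 30 and 10 °C, 99 (41.3%) were changed, 64 higher and 35 lower, against 42.4% of all genes. These 3 counts lie near the background of the listed genes, so the number of changed P450 genes does not set the family apart. Among changed genes the higher share at 30 °C against 20 °C was 71.1% for P450 genes and 60.5% for all genes, and the median difference was 1.45 and 1.17 on the log2 scale. At 10 °C against 20 °C these shares were 54.0% and 54.3%.

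Larger differences were somewhat more frequent among P450 genes than among all listed genes in most E. globulus comparisons, a description with no test. A difference of at least 4-fold was found in 29 P450 genes (12.1%) at 10 °C, against 8.54% of all genes, and in 37 (15.4%) at 30 °C, against 11.7%, both relative to 20 °C. It was found in 31 (12.9%) at 10 °C with elevated CO2, against 8.65%, and in 59 (24.6%) at 30 °C with elevated CO2, against 17.2%, on the same control. For 30 °C against 10 °C the numbers were 37 (15.4%) and 12.8%. Elevated CO2 at 20 °C gave 3 (1.25%) and 1.44% of all genes. In E. grandis the P450 genes past 4-fold were 2 at 10 °C (all genes 1.25%), 1 at 30 °C (0.364%), 2 at 30 °C against 10 °C (1.59%), 12 at 10 °C with elevated CO2 (6.41%) and 10 at 30 °C with elevated CO2 (3.11%).

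**Figure D1:**
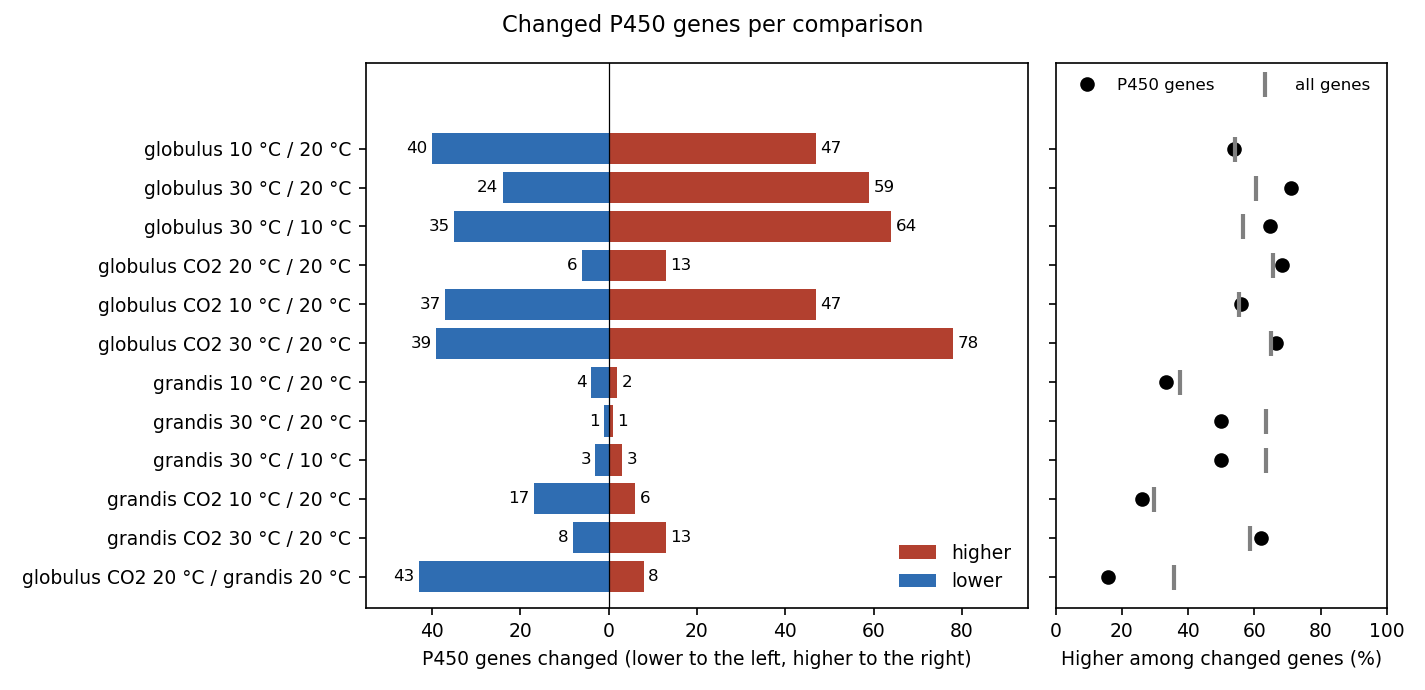
Number of P450 genes higher (red, right) or lower (blue, left) by at least 2-fold in each comparison, named as group / the group it is set against, with the share of higher genes among changed P450 genes (points) and among all changed genes (ticks) in %. The most calls, 78 higher and 39 lower, are at 30 °C with elevated CO2 in E. globulus, and the lowest share of higher genes, 15.7%, is in the pair of both species.

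Single families had more one-sided counts than the P450 genes as a whole, among them families of hormone metabolism. CYP94B and CYP94C enzymes oxidise jasmonoyl-isoleucine, the active form of the wound and defence hormone jasmonate, and thereby turn it off. Of the 15 CYP94 genes, 8 were higher and 2 lower at 10 °C against 20 °C, when 17.1% of all genes were higher. In the warmth, against the same 20 °C group, 8 were higher and none lower, when 22.7% of all genes were higher, and the median difference of the 7 with no group at 0 was 3.78. The 2 lower genes at 10 °C were the CYP94D2 genes, a subfamily apart from the jasmonate-oxidising ones.

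The CYP94C1 gene Eucgr.J00477 had values of 10.05 at 10 °C, 3.19 at 20 °C and 8.34 at 30 °C in E. globulus. Its 20 °C value was thus the lowest of the 3 temperatures, 6.87 below that at 10 °C on the log2 scale. The CYP94B3 gene Eucgr.B00114 stood at 6.76, 0.29 and 4.50 at 10, 20 and 30 °C. Its neighbour Eucgr.B00113 stood at 6.22, 1.22 and 4.99, and Eucgr.B00119, from the same stretch, at 5.00, 2.89 and 7.06. The last of these was highest at 30 °C, whereas the other named CYP94B3 and CYP94C1 genes were highest at 10 °C. Eucgr.B00115, also CYP94B3, was listed at 0 at 20 °C and stood at 4.72 at 10 °C and 1.83 at 30 °C. The second CYP94C1 gene with all 3 temperatures, Eucgr.B03878, stood at 5.45, 1.02 and 3.25. The pair of warm and cold plants does not involve the 20 °C group. In it, 3 CYP94 genes were higher and 5 lower at 30 °C against 10 °C, with a median of -1.47. By subfamily, CYP94B had 1 higher and 3 lower, CYP94C none higher and 2 lower, and CYP94D 2 higher and none lower. Of all genes, 23.9% were higher and 18.4% lower.

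CYP707A enzymes inactivate abscisic acid, the hormone of drought and dormancy. All 4 CYP707A genes were higher at 10 °C against 20 °C, with a median of 2.47, and 3 were higher at 30 °C against 20 °C by 4.13 to 4.45. The shares of all genes that were higher were 17.1% and 22.7% in these pairs. Eucgr.E01149 (CYP707A1) stood at 10.87, 7.99 and 12.12 at 10, 20 and 30 °C. Eucgr.G01437 (CYP707A4) stood at 5.18, 0.56 and 4.72, and Eucgr.B02321 (CYP707A2) at 3.18, 1.60 and 6.05. The 20 °C value was the lowest in each of these genes. The other CYP707A4 gene, Eucgr.F00225, differed from them at 30 °C: it stood at 10.72, 8.66 and 8.98 in E. globulus and at 9.64, 7.75 and 7.35 in E. grandis, so in both species only the 10 °C value was at least 2-fold above the control.

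Cytokinins and gibberellins, hormones of cell division and elongation, gave another picture. CYP735A enzymes make the trans-zeatin form of cytokinins, and all 3 CYP735A1 genes were higher at 30 °C against 20 °C, by 2.29 to 2.61. In that pair 22.7% of all genes were higher. Eucgr.F02489 stood at 3.51, 4.05 and 6.66 at 10, 20 and 30 °C, while Eucgr.J01500 stood at 4.52, 0.93 and 3.29 and was therefore high in the cold as well. CYP88A3 makes gibberellin precursors as ent-kaurenoic acid oxidase, and its gene Eucgr.D01134 was lowest in the warmth, at 9.09, 9.93 and 8.37. A second CYP88A3 gene, Eucgr.L03454, stood at 5.82, 5.29 and 3.64. Of the 8 genes described as CYP714A1, a subfamily whose members inactivate gibberellins, 3 were lower and none higher at 30 °C with elevated CO2 against 20 °C, by 1.04 to 2.40, where 16.2% of all genes were lower. Eucgr.C00666, named for CYP711A1 of strigolactone synthesis, stood at 7.04, 5.95 and 6.79, and at 7.32 at 30 °C with elevated CO2.

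**Figure D2:**
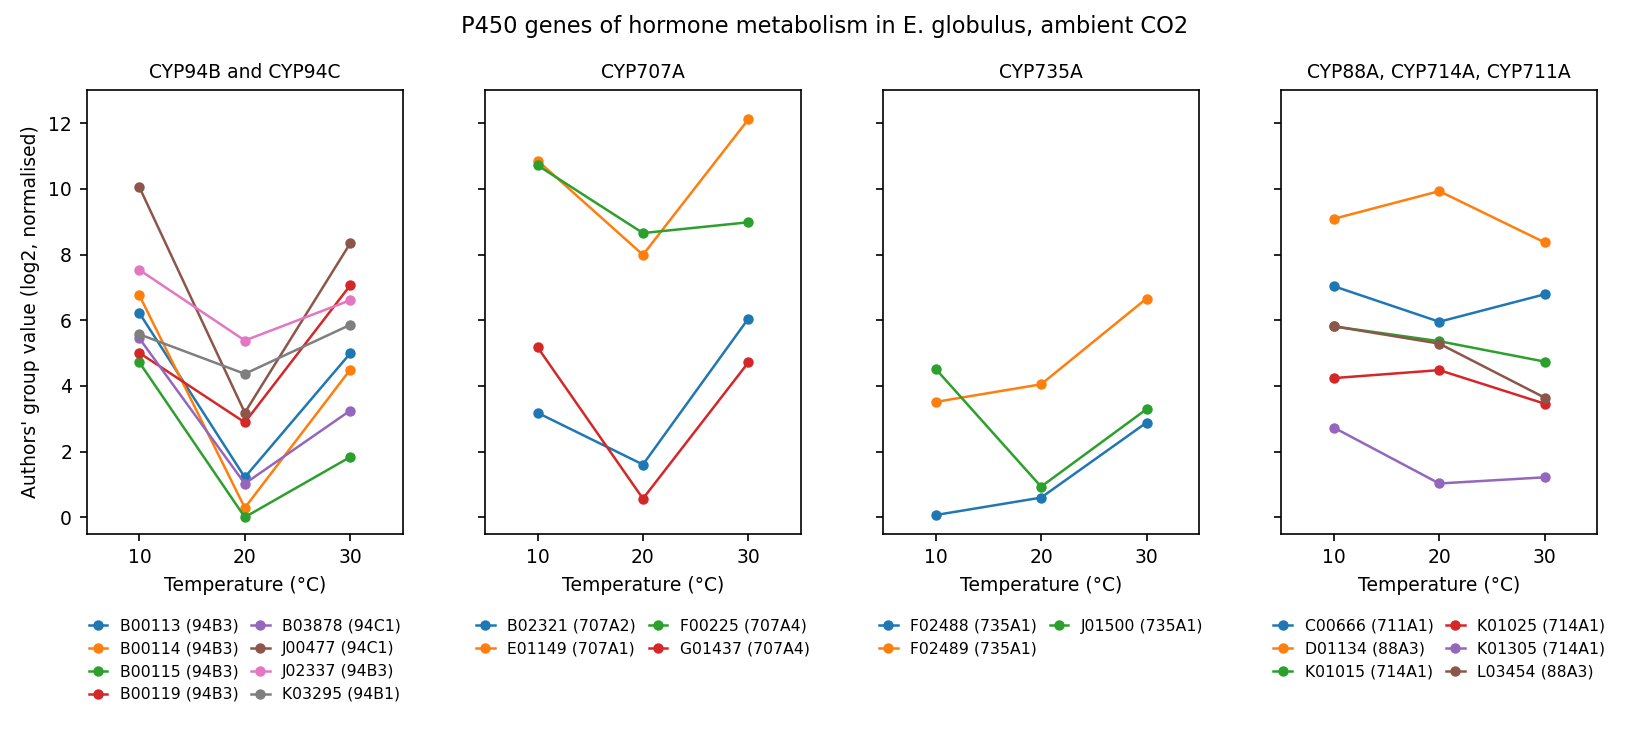
Authors' normalised group value (log2) of the P450 genes of hormone metabolism that have all 3 temperatures in E. globulus under ambient CO2, 1 line per gene with its CYP name in brackets, and no error bars because the tables give 1 value per group. The CYP94B, CYP94C and CYP707A lines dip at 20 °C, as do Eucgr.J01500 of CYP735A and Eucgr.C00666 of CYP711A. The 2 other CYP735A lines and the CYP88A lines do not, and the CYP714A lines are not summarised here.

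The genes of lipid, wall and sterol chemistry were fewer and ran in both directions. CYP86A enzymes hydroxylate fatty acids for suberin and cutin, and all 3 CYP86 genes were lower at 30 °C against 20 °C, by 1.04 to 1.18, where 14.8% of all genes were lower. The suberin-type gene Eucgr.J01934 (CYP86A1) stood at 8.90, 8.95 and 7.80. Eucgr.J01011 (CYP77A4, a fatty acid epoxidase in A. thaliana) showed the same order, at 11.07, 11.15 and 10.05. CYP78A genes promote organ growth in A. thaliana, and all 3 were lower at 30 °C with elevated CO2 against 20 °C, by 1.21 to 1.53. In that pair 16.2% of all genes were lower. Among the CYP78A genes Eucgr.H04642 (CYP78A10) differed by -1.53. Eucgr.H01373, named for the carotenoid hydroxylase CYP97A3, stood at 10.40, 10.12 and 9.17 in E. globulus and at 10.51, 9.87 and 8.91 in E. grandis.

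CYP704B1 and CYP703A2 oxidise fatty acids for the pollen wall in A. thaliana, and both were listed in these stems. Eucgr.B03209 (CYP704B1) stood at 7.77, 7.95 and 9.39 at the 3 temperatures in E. globulus, and at 2.32 at 10 °C with elevated CO2 against 6.11 at 20 °C in E. grandis. Eucgr.D02382 (CYP703A2) stood at 5.02, 6.66 and 4.59 in E. globulus, highest at 20 °C. Eucgr.D00302, a CYP710A1 gene of the sterol pathway to stigmasterol, stood at 2.38, 0.85 and 2.85, and reached 5.62 at 30 °C with elevated CO2.

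Among the large families of specialised metabolism, CYP81D had the most genes higher at 30 °C against 20 °C in E. globulus. Of its 22 genes, 14 were higher and none lower at 30 °C against 20 °C, by up to 3.44 with a median of 2.24 over the 13 with no group at 0. In that pair 22.7% of all genes were higher. Set against 10 °C, 12 CYP81D genes were higher and none lower at 30 °C, when 23.9% of all genes were higher. At 10 °C against 20 °C, 7 were higher and 1 lower (17.1% and 14.4% of all genes). Eucgr.F00173 (CYP81D8), found in 6 tables, stood at 9.21, 7.79 and 9.14 at 10, 20 and 30 °C in E. globulus. CYP82 ran the other way in the cold: of 19 genes, none was higher and 8 were lower at 10 °C against 20 °C, by 1.07 to 3.16, when 14.4% of all genes were lower. All 8 belong to CYP82C, the subfamily of an A. thaliana enzyme that hydroxylates a coumarin under iron deficiency. Between 30 and 10 °C, 7 were higher and none lower.

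Eucgr.L00957 (CYP82C4) was lowest at 10 °C and highest at 30 °C in both species, although the 30 and 20 °C values of E. grandis lay under 2-fold apart. It stood at 3.88, 6.77 and 8.88 at 10, 20 and 30 °C in E. globulus, and at 6.74, 9.58 and 10.17 in E. grandis. Under elevated CO2 it stood at 3.61, 8.82 and 10.54 at the same temperatures in E. globulus. CYP71, with 29 genes, had 3 higher and 11 lower at 10 °C against 20 °C (17.1% and 14.4% of all genes). At 30 °C against 10 °C it had 13 higher and 1 lower (23.9% and 18.4% of all genes). Among the 3 higher in the cold was Eucgr.C01776 (CYP71B4), at 5.45, 3.94 and 8.50, lowest at 20 °C.

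In the CYP76 family the leaning was the other way. Its CYP76C subfamily, which oxidises monoterpenols such as linalool in A. thaliana, had 7 of 16 genes higher and none lower at 10 °C against 20 °C. In that pair 17.1% of all genes were higher. At 30 °C against 10 °C, no CYP76C gene was higher and 9 were lower, when 18.4% of all genes were lower. Against 20 °C the warm groups were mixed. At 30 °C, 2 CYP76C genes were higher and 4 lower (22.7% and 14.8% of all genes). At 30 °C with elevated CO2, 3 were higher and 1 lower, with a median of 1.40 (29.9% and 16.2% of all genes). Eucgr.D01639 (CYP76C7) stood at 8.20, 5.78 and 1.97 at 10, 20 and 30 °C. Its difference of -6.24 between 30 and 10 °C was the lowest of all P450 genes in that comparison. Eucgr.D01958 (CYP76C4) stood at 8.58, 7.24 and 3.74. The 6 CYP76G1 genes did not share the pattern, with 3 higher and none lower at 30 °C against 10 °C (23.9% of all genes higher).

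The 22 genes with no family in their description had 8 higher and none lower at 10 °C against 20 °C. At 30 °C against 10 °C none was higher and 7 were lower. Of all genes, 17.1% were higher and 14.4% lower in the first pair, and 23.9% and 18.4% in the second. On the 20 °C control, 3 of the 22 were higher and 3 lower at 30 °C (22.7% and 14.8% of all genes). With elevated CO2 at 30 °C, 8 of the 22 were higher and 4 lower, with a median of 1.89 (29.9% and 16.2% of all genes). Eucgr.B03742 stood at 15.34, 14.29 and 11.99, and Eucgr.B00582 at 14.00, 12.93 and 10.98. The CYP96 family includes a wax alkane hydroxylase in A. thaliana. Of its 8 genes, 5 were lower and none higher at 10 °C against 20 °C (14.4% of all genes lower). At 30 °C against 10 °C, 5 were higher and none lower (23.9% of all genes higher). Against 20 °C the family was mixed, with 1 higher and 2 lower at 30 °C (22.7% and 14.8% of all genes). With elevated CO2 at 30 °C, 1 was higher and 1 lower on the same control (29.9% and 16.2% of all genes). CYP706 was mixed: at 10 °C against 20 °C 2 of 13 were higher and 4 lower (17.1% and 14.4% of all genes). Its gene Eucgr.E00470 (CYP706A6) stood at 7.37, 1.22 and 7.45, and at 9.66 at 30 °C with elevated CO2, which made it the P450 gene with the largest higher difference there, 8.45.

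**Figure D3:**
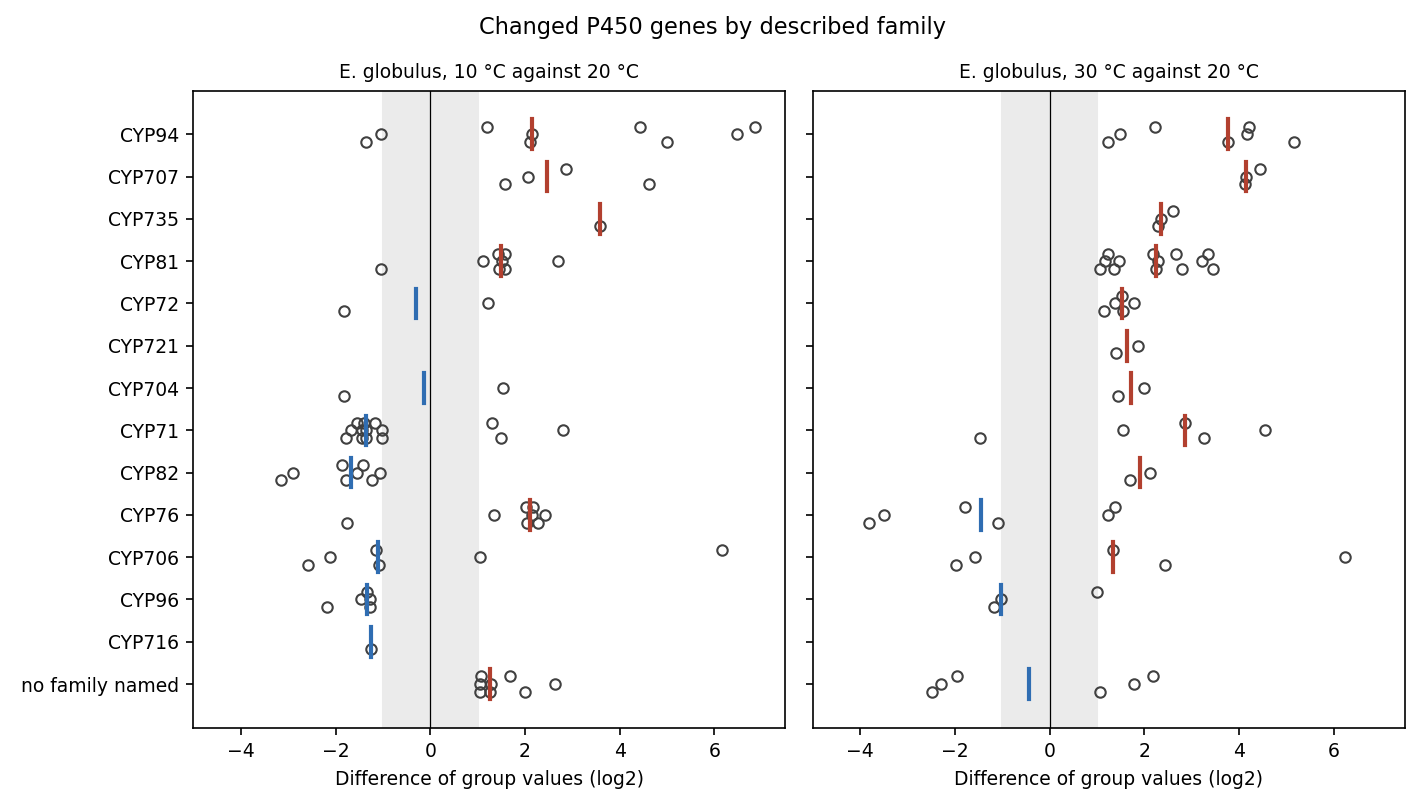
Difference of group values on the log2 scale in E. globulus at 10 °C (left) and 30 °C (right), each against 20 °C, for changed P450 genes of 13 described families and of those with no family named; circles are genes with no group at 0, the bar is their median, and the grey band is a difference under 2-fold. CYP707 and all but the 2 lower CYP94 genes sit to the right in both panels, CYP82 sits left in the cold, and CYP81 sits right in the warmth.

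Many P450 genes lie beside each other in the genome, and their directions were compared between neighbours. Runs were formed from genes on the same chromosome letter whose ends lie within 100 kb of the next, with at least 3 genes, a grouping made after the values were seen; genes of the letter L, which marks sequence on several pseudochromosomes, were left out. This gave 22 runs with 111 of 224 genes, of which 15 hold a single named subfamily, 3 hold genes with no family named and 4 hold several subfamilies. At 10 °C against 20 °C in E. globulus, 8 runs had at least 3 changed genes, and in all 8 these genes had the same direction. The same held for 5 runs of 6 at 30 °C against 20 °C and for 8 of 10 at 30 °C against 10 °C. With elevated CO2, against the 20 °C control, it held for 5 of 8 at 10 °C, where 3 had both directions, and for 7 of 9 at 30 °C. In E. grandis 1 run had enough changed genes, at 10 °C with elevated CO2, and it had both directions, while the pair of both species had 3 runs, each with 1 direction. Runs with fewer than 3 changed genes are outside these counts, and some of them were split. At 10 °C against 20 °C in E. globulus, 1 gene was higher and 1 lower in each of 3 runs. These were Eucgr.B03247 to Eucgr.B03265, Eucgr.D00200 to Eucgr.D00214 and Eucgr.E01358 to Eucgr.E01368. In Eucgr.I00333 to Eucgr.I00339 and Eucgr.I00744 to Eucgr.I00750, 2 genes were higher and none lower. No such count was made for runs of other genes or for P450 genes outside runs. Many neighbours share a description, and whether reads split between such copies add to the shared direction was not tested.

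The CYP72A run from Eucgr.F01383 to Eucgr.F01398 had 8 of 8 genes higher at 30 °C with elevated CO2 against 20 °C, by 1.22 to 4.10 (29.9% of all genes higher). A gene enters a run only if some comparison listed it, this one included, so 8 of 8 was partly set by that choice. At 30 °C against 20 °C in ambient CO2, 2 of the 8 were changed, both higher. Eucgr.F01386 (CYP72A15) of that run stood at 9.34 at 30 °C with elevated CO2 and 6.41 in the control. In the CYP94B run from Eucgr.B00113 to Eucgr.B00119, 4 of 5 genes were higher at 10 °C against the 20 °C control, by 2.12 to 6.47 (17.1% of all genes higher). At 30 °C against the same control, 4 were higher (22.7% of all genes). The 3 of these with no group at 0 differed by 3.78 to 4.21 at 30 °C. The 4 CYP76C genes from Eucgr.D01952 to Eucgr.D01958 were all higher at 10 °C against 20 °C (17.1% of all genes higher). All 4 were lower at 30 °C against 10 °C, by 1.93 to 4.85 (18.4% of all genes lower). The run of mainly CYP71A genes from Eucgr.B00182 to Eucgr.B00207 had 6 of 10 genes lower at 10 °C against 20 °C (14.4% of all genes). It had 7 higher at 30 °C against 10 °C (23.9% of all genes). Against 20 °C, however, 1 was higher and none lower at 30 °C (22.7% and 14.8% of all genes). At 30 °C with elevated CO2 against 20 °C, none was higher and 5 were lower (29.9% and 16.2% of all genes). Counts in these other runs were partly set by the same listing as in the CYP72A run.

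**Figure D4:**
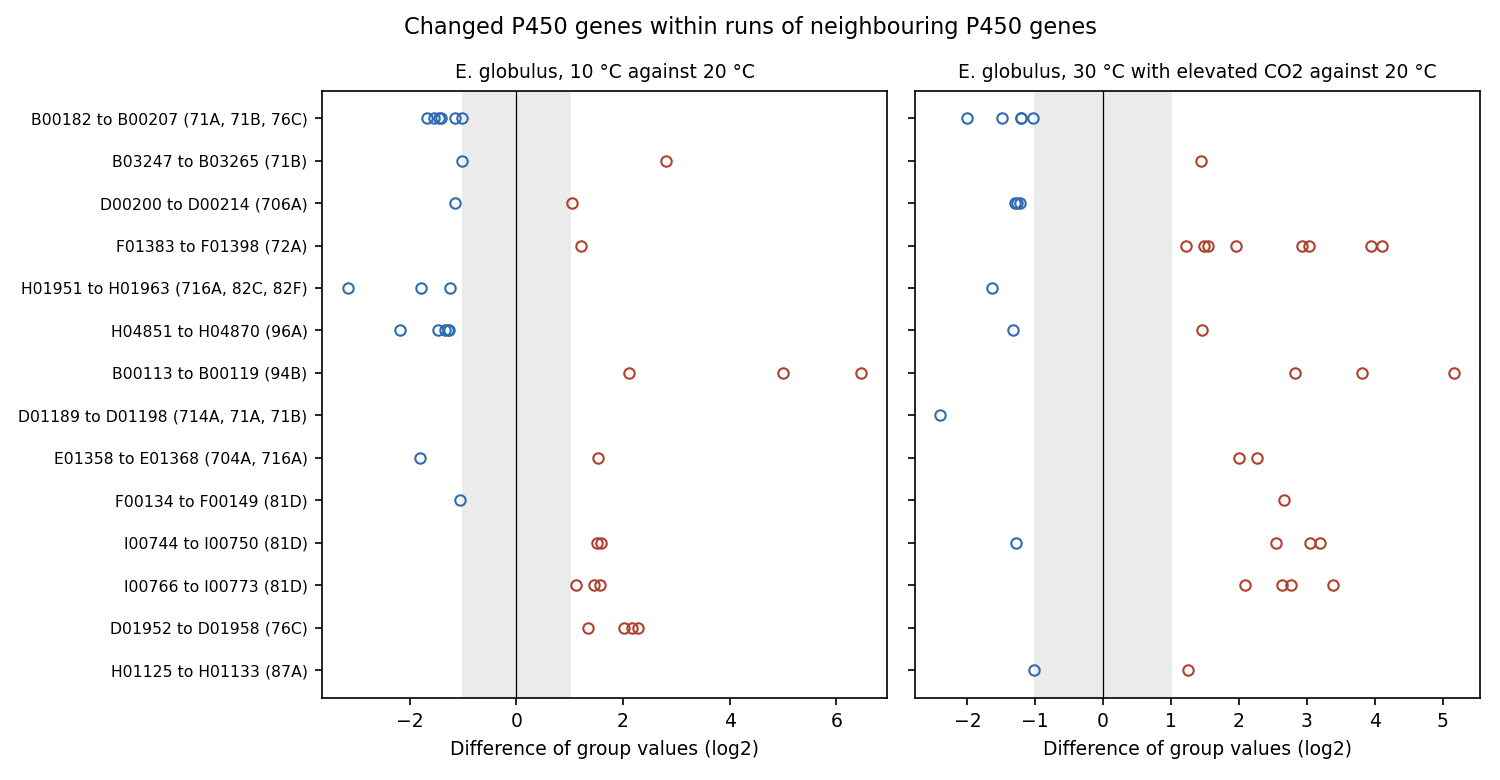
Difference of group values on the log2 scale for changed P450 genes in runs of at least 4 neighbouring P450 genes in E. globulus, at 10 °C (left) and at 30 °C with elevated CO2 (right), each against the 20 °C control; rows are runs with their CYP subfamilies in brackets, red circles are higher and blue circles lower genes, and genes with a group at 0 are left out. Within most rows the circles lie on 1 side of 0, as in the CYP72A run, where all 8 lie between 1.22 and 4.10 on the right.

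Few P450 genes were changed in E. globulus in elevated CO2 at 20 °C. Of the 240, 19 (7.92%) were changed, 13 higher and 6 lower, against 5.03% of all genes, 3.31% higher and 1.72% lower. Eucgr.C01776 (CYP71B4) stood at 7.70 in elevated CO2 and 3.94 in ambient CO2, a difference of 3.76. Eucgr.L00957 (CYP82C4) stood at 8.82 and 6.77, Eucgr.D01639 (CYP76C7) at 7.73 and 5.78, and Eucgr.E01149 (CYP707A1) at 9.44 and 7.99, in elevated and ambient CO2. Lower genes included the CYP94B1 pair Eucgr.K03296, at 3.75 in elevated and 5.61 in ambient CO2, and Eucgr.B01524, at 8.39 and 9.48. Eucgr.H04914 (CYP79B2) was listed at 0 in the control and was higher in elevated CO2.

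Combined with cold or warmth, elevated CO2 plants were compared by the authors with the 20 °C control in ambient CO2, so temperature and CO2 both differ. At 10 °C with elevated CO2, 84 genes (35.0%) were changed, 47 higher and 37 lower, against 28.5% of all genes, 15.8% higher and 12.7% lower. CYP94 had 10 higher and 2 lower, CYP76 9 higher and 3 lower, and CYP82 1 higher and 7 lower. CYP716, a family of triterpenoid oxidases in Medicago truncatula, had 1 of 12 higher and 5 lower, and Eucgr.E01406 (CYP716A1) stood at 5.28 in that group and 6.64 in the control. At 30 °C with elevated CO2, 117 genes (48.8%) were changed, 78 higher and 39 lower, against 46.0% of all genes, 29.9% higher and 16.2% lower. CYP72 had 11 of 13 higher and none lower with a median of 1.96, CYP81 12 higher and 1 lower, and 3 of 4 CYP721 genes were higher. The family sizes count only listed genes, some of them listed in this comparison alone. Eucgr.K02129, named for the homoterpene enzyme CYP82G1, stood at 8.15 in that group and 4.72 in the control.

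The difference between CO2 levels within a temperature can only be read across separate tables, for genes listed in both and without a test. At 10 °C, 57 P450 genes in E. globulus had values in both CO2 levels, and 10 (17.5%) lay at least 2-fold apart, against 9.43% of the 2555 genes of any kind. Of these 10, 5 were higher and 5 lower in elevated CO2, and over all genes 138 were higher and 103 lower. The 5 that were lower in elevated CO2 at 10 °C were all CYP94 or CYP707 genes: Eucgr.E01149, at 9.01 in elevated and 10.87 in ambient CO2, Eucgr.G01437, Eucgr.B00113, Eucgr.B00115 and Eucgr.J00477. They were singled out after their values were seen. Other CYP94 genes lay under 2-fold apart at 10 °C, in both directions. Higher in elevated CO2 were Eucgr.K03295 (CYP94B1), at 6.37 against 5.57, Eucgr.J02337 (CYP94B3), by 0.29, and Eucgr.A02195 (CYP94D2), by 0.17. Lower were Eucgr.B00114 (CYP94B3), at 6.54 against 6.76, and Eucgr.B03878 (CYP94C1), at 4.87 against 5.45. At 30 °C, 73 genes had both values and 27 (37.0%) lay at least 2-fold apart, 13 higher and 14 lower in elevated CO2, against 25.3% of 3486 genes, 583 higher and 300 lower. Eucgr.J00477 (CYP94C1) stood at 5.69 in elevated and 8.34 in ambient CO2 at 30 °C. Eucgr.E01149 stood at 10.84 and 12.12 in the same groups, whereas Eucgr.E00470 (CYP706A6) stood at 9.66 and 7.45. Other genes of the same hormone families stood higher in elevated CO2: Eucgr.B03878 (CYP94C1) at 4.46 against 3.25, Eucgr.B00119 (CYP94B3) at 8.06 against 7.06 and Eucgr.G01437 (CYP707A4) at 5.65 against 4.72, the last 2 by under 2-fold. The jasmonate and abscisic acid families thus ran in both directions at 30 °C.

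In E. grandis few P450 genes were changed between temperatures in ambient CO2, as were few genes of any kind. At 10 °C against 20 °C 6 P450 genes were changed, 2 higher and 4 lower, with 3.2% of all genes changed, 1.2% higher and 2.0% lower. The warm plants had 1 higher and 1 lower against 20 °C, with 1.34% of all genes changed, 0.854% higher and 0.49% lower. Against 10 °C they had 3 higher and 3 lower, with 3.98% of all genes changed, 2.53% higher and 1.45% lower. One of the changed genes was Eucgr.H04913, named for CYP79B3, which turns tryptophan into an oxime precursor of defence compounds: it stood at 2.86, 0.23 and 3.68 at 10, 20 and 30 °C, lowest at 20 °C, and at 3.91 at 30 °C with elevated CO2.

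With elevated CO2 the counts in E. grandis were larger. At 10 °C with elevated CO2 against 20 °C, 23 genes (9.58%) were changed, 6 higher and 17 lower, with 13.1% of all genes changed and 9.2% lower. CYP82 had 5 lower and none higher, by 1.03 to 5.87: Eucgr.L00956 (CYP82C4) stood at 0.83 in that group and 6.70 in the control, and Eucgr.F02404 (CYP82C4) at 3.99 and 7.56. The higher genes included Eucgr.J02337 (CYP94B3), at 8.29 and 6.22, and Eucgr.F00178 (CYP81D4), at 9.11 and 6.95, in the same groups. In E. globulus Eucgr.J02337 stood at 7.83 at 10 °C with elevated CO2 and 5.38 in the control. At 30 °C with elevated CO2, 21 E. grandis genes (8.75%) were changed, 13 higher and 8 lower, with 8.32% of all genes changed, 4.89% higher and 3.43% lower. Of these, 3 were CYP81D genes, all higher, by 1.81 to 2.84, with Eucgr.F00178 at 9.78 in that group and 6.95 in the control. Whether the species differ in these responses was not tested.

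One table sets E. globulus at 20 °C in elevated CO2 against E. grandis at 20 °C in ambient CO2, by its column headers, so species and CO2 cannot be told apart in it. Identifiers are E. grandis gene models. Whether reads of both species were counted equally well on them was not tested, so a lower E. globulus value need not mean less RNA. The E. grandis group with elevated CO2 at 20 °C is not analysed here. P450 genes were mostly lower in E. globulus: 51 (21.3%) were changed, 8 higher and 43 lower, with 19.9% of all genes changed, 7.11% higher and 12.8% lower. A difference of at least 4-fold was found in 33 of the 240 P450 genes (13.8%), against 10.1% of all genes. The share of higher genes was 15.7% for P450 genes and 35.8% for all changed genes, with medians of -2.13 and -1.45. With P450 genes of a shared description and direction counted once, the P450 share was 27.6%. Lower genes came from many families, including CYP87 with 6 of 14 lower and 1 higher, CYP76 with 6 lower and 1 higher, CYP706 with 5 lower and CYP82 with 4 lower. Eucgr.H01952 (CYP82C4) stood at 2.24 in E. globulus and 8.25 in E. grandis, and Eucgr.D01956 (CYP76C4) at 1.12 and 6.73. The reverse was seen in Eucgr.I00783 (CYP81D1), at 8.84 and 5.65, and Eucgr.B03254 (CYP71B10), at 8.91 and 6.74.

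A pair under ambient CO2 can be formed from the 20 °C controls, across tables and without a test. The limit of E. grandis gene models holds for it too. In 46 P450 genes with both values, 36 were lower in E. globulus and the median difference was -1.72, against -0.57 over 2453 genes of any kind, of which 36.6% were higher. Of the 46, 28 also stand in the table of both species, where they were selected for differing from the same E. grandis control, so the larger part of this pair repeats that selection. These 28 had 24 lower and a median of -2.28, against -1.56 over 1247 such genes of any kind. The other 18, a split made after the values were seen, had 12 lower and a median of -0.47, against -0.25 over 1206 genes, of which 60.4% were lower. For Eucgr.H01952 the ambient values were 2.89 in E. globulus and 8.25 in E. grandis, and for Eucgr.F01551 (CYP721A1) they were 6.38 and 10.57.

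**Figure D5:**
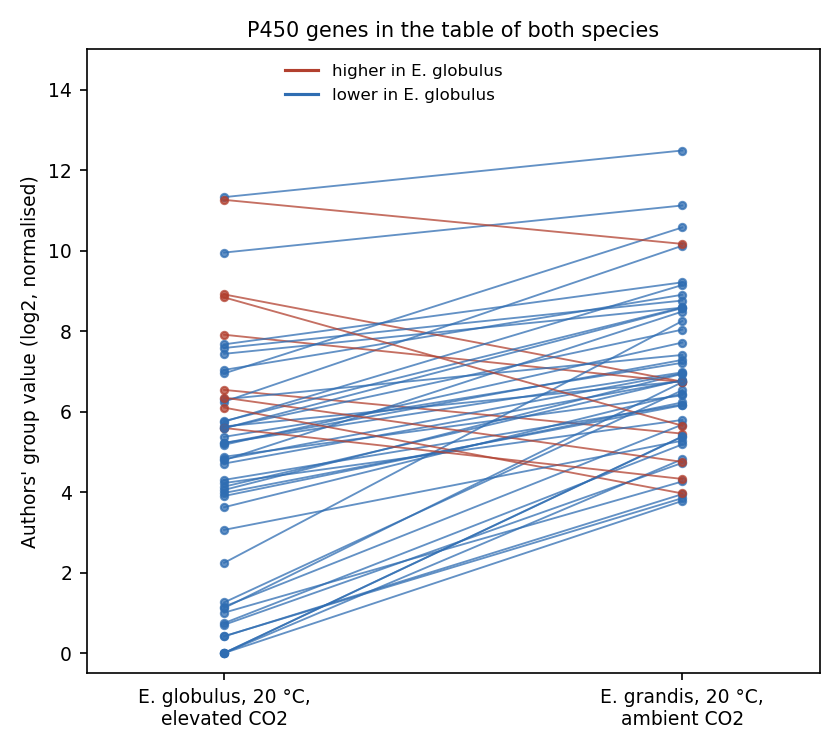
Authors' normalised group value (log2) of the 51 P450 genes in the table of both species, with E. globulus at 20 °C in elevated CO2 on the left and E. grandis at 20 °C in ambient CO2 on the right; each line is 1 gene. The 43 blue lines are lower in E. globulus and the 8 red lines are higher.

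Genes that work with or beside P450s were counted from lists of described genes. The electron donors of P450s, the P450 reductase and the cytochrome b5 group with its reductases, had 10 listed genes. None was higher and 6 were lower at 30 °C against 10 °C, where 18.4% of all genes were lower. Against 20 °C, 4 were higher and none lower at 10 °C with elevated CO2 (15.8% of all genes higher), 2 were higher and 1 lower at 10 °C (17.1% and 14.4%), and none was higher and 4 were lower at 30 °C (22.7% and 14.8%). Eucgr.F00125 (cytochrome b5 isoform D) stood at 14.02, 12.33 and 8.56 at 10, 20 and 30 °C in E. globulus, and Eucgr.C02330 (P450 reductase 2), which passes electrons from NADPH, at 13.21, 11.80 and 12.34. The 13 P450 genes that the choice left out had 8 higher and none lower at 30 °C with elevated CO2 against 20 °C, with a median of 3.09, where 29.9% of all genes were higher. Most of these 8 are allene oxide synthases, which act early in jasmonate synthesis: Eucgr.K01755 stood at 6.43 in that group and was listed at 0 in the control, and Eucgr.G00504 stood at 5.83 and 0.75. Flavin monooxygenases, another class of oxygen-inserting enzymes, had 6 of 13 higher and 1 lower in that comparison.

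The hormone lists gave less uniform counts. The brassinosteroid list took names of synthesis and receptor genes and any description with the word steroid, so it may hold other genes. Of this list, 13 of 30 were higher and none lower at 30 °C with elevated CO2 against 20 °C (29.9% of all genes higher). At 10 °C against 20 °C, 5 were higher and 6 lower (17.1% and 14.4%). In E. grandis at 10 °C with elevated CO2 against 20 °C, 2 of the 30 were higher and 9 lower, with a median of -3.15, where 9.2% of all genes were lower. Abscisic acid synthesis and receptor genes, the counterpart of CYP707A, had 3 higher and 2 lower of 9 at 10 °C and 4 higher and 2 lower at 30 °C, each against 20 °C. The dioxygenases that depend on 2-oxoglutarate, with related ones, had 28 of 101 higher and 21 lower at 10 °C and 28 higher and 12 lower at 30 °C, where 22.7% of all genes were higher and 14.8% lower.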

How the data were processed

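Stem RNA was sequenced. The submitters' processing notes list Bowtie2 and DESeq with no version; read counting and genome build were not given in the sources used here. Group values are log2 values normalised by the authors with a floor of 0, and the deposited tables also give log2 differences and a fold as a ratio for each pair, per the file headers. Of the 8 deposited tables, 6 hold genes of a moderated test between 2 groups and 2 of a one-way test over 3 temperatures, at a corrected p-value of 0.05 and a fold of at least 2, per the file headers. Differences were computed here from the authors' group values; 8144 values repeated between tables were equal within 0.0001.

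The planned counts use listed genes with a difference of at least 1 on the log2 scale, with no test of their own, since no p-value or sample value is given. Percentages of genes changed, higher or lower in a comparison are of the 11827 listed genes or of the 240 members. Higher shares among changed genes are of the changed genes. Percentages for pairs formed across tables are of the genes with both values. Genes with a group at 0 were left out of the medians of changed genes. They were kept in the medians of pairs formed across tables. Members, families, role groups and gene lists were chosen with earlier results of these data known. By rule, named genes are the 5 highest and 5 lowest per comparison, 1 gene per family of at least 3, and genes in at least 5 tables; the others were named after their values were seen. Counting was tested on simulated data, with Python 3.11.15 and pandas 2.3.3. Alternatives were a minimum fold of 4, genes of a description counted once, genes at 0 left out, and the other P450 genes added.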

Additional observations from a re-analysis of the deposited data

How the results depend on the processing

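The limits are those of the deposited tables: listed genes only, 1 value per group, no depth and no spread. No paired analysis was possible because the tables give 1 value per group, and leaving out single samples was not possible for the same reason. With a minimum fold of 4 the counts of changed P450 genes in E. globulus were 29 at 10 °C, 37 at 30 °C, 3 at 20 °C with elevated CO2, 31 at 10 °C with elevated CO2 and 59 at 30 °C with elevated CO2, each against 20 °C, and 37 at 30 °C against 10 °C. In E. grandis they were 2 at 10 °C, 1 at 30 °C, 12 at 10 °C with elevated CO2 and 10 at 30 °C with elevated CO2, each against 20 °C, and 2 at 30 °C against 10 °C; the pair of both species had 33. The higher share at a fold of 4 was 75.9% at 10 °C (66.4% of all genes), 83.8% at 30 °C (78.1%), 100% at 20 °C with elevated CO2 (3 of 3 genes; all genes 58.2%), 67.7% at 10 °C with elevated CO2 (68.9%) and 88.1% at 30 °C with elevated CO2 (79.2%) in E. globulus, and 100% at 30 °C in E. grandis (1 of 1 gene; all genes 53.5%). With genes of a shared description and direction counted once, the E. globulus counts were 47 at 10 °C, 48 at 30 °C, 45 at 10 °C with elevated CO2 and 65 at 30 °C with elevated CO2, each against 20 °C, 46 at 30 °C against 10 °C, and 29 for the pair of both species. Counted this way, the higher share was 53.2% at 10 °C and 66.7% at 30 °C in E. globulus, each against 20 °C. For the pair of both species it was 27.6%. Leaving out genes at 0, or adding the other P450 genes, kept all 12 counts within 1.5 times.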
